A study of Rattus norvegicus with 12 samples.

Results

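The mitochondrial solute carriers are the Slc25 family, proteins that carry metabolites, nucleotides, amino acids, cofactors and ions through the inner mitochondrial membrane. They were followed in the epididymal white fat of male Sprague-Dawley rats that were fed, fasted until phase 2, or fasted until phase 3, with 4 rats in each group and 1 Affymetrix array per rat. All probe sets with a single platform gene symbol beginning Slc25a were taken, which gave 42 probe sets for 37 genes among the 14506 genes that could be tested. The brightest probe set by its mean over the 12 arrays stood for each gene. The RefSeq annotation of the rat assembly GRCr8 lists 53 protein-coding genes with such a symbol, and those without a probe set here were not analysed. The labels used here state neither the length of each fast nor the age of the rats. In a long fast, phase 2 is the stage in which fat is the main fuel and body protein is spared, and phase 3 the later stage in which protein breakdown rises. Values are log2 levels made with RMA, so a difference of 1 is a doubling, and they are listed from rat 1 to rat 4 of each group.

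The inner mitochondrial membrane lets few metabolites through unaided, so the carriers decide what can pass between matrix and cytosol. In white fat they are known for exporting citrate, the source of cytosolic acetyl-CoA for fatty acid synthesis, for passing malate, phosphate and other anions that support lipogenesis and glyceroneogenesis, for taking in acylcarnitines for oxidation, and for exchanging ATP for ADP. Most are thought to work as exchangers, and several have substrates that are not settled.

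The tissue was checked on marker genes. Adipocyte markers were bright, with Adipoq, which encodes adiponectin, at 11.63 in phase 3 and 13.15 in fed rats. The mean over 11 adipocyte markers lay between 9.88 and 10.57 in phase 3 rats, against 11.59 to 11.66 in fed rats, and 10 of the 11 fell in that comparison, with a median of -1.19. Between phase 2 and fed rats 2 of the 11 rose and 1 fell, with a median of 0.03. All 11 fell in phase 3 against phase 2, with a median of -1.17. Over the whole tissue, fewer adipocytes and less of an RNA per adipocyte cannot be told apart. Fibroblast and progenitor markers fell in 7 of 8 cases in phase 3 against fed, where the eighth, Dcn, rose (0.42), and in 3 in phase 2 against fed, smooth muscle markers rose in 6 of 6 in both comparisons, endothelial markers rose in 3 of 6 and 4 of 6, and macrophage markers rose in 4 and fell in 3 of 10 in phase 3. In phase 3 against fed, erythroid markers fell in 3 of 4 cases, mesothelial markers in 3 of 4, T and NK cell markers in 4 of 8 and skeletal muscle markers in 1 of 6, and epididymis and testis markers rose in 3 of 8 at a dim level. In phase 3 against phase 2, fibroblast and progenitor markers fell in 7 of 8 cases and rose in 1. Erythroid markers fell there in 4 of 4 cases, mesothelial markers in 2 of 4 and T and NK cell markers in 4 of 8. Macrophage markers rose there in 3 and fell in 1 of 10. In phase 2 against fed, mesothelial markers fell in 3 of 4 cases and erythroid markers rose in 1 of 4. Of 9 hepatocyte markers 5, Ttr, Tat, Serpina1, Cyp2c11 and Fgb, lay below the background guide in every group. Hp rose (1.79), and Alb (-1.59) and Apoc3 (-0.69) fell in phase 3 against fed, and mean Alb was 8.33 for the fed group, 9.62 for phase 2 and 6.73 for phase 3. The brown fat marker Ucp1, the uncoupling protein of thermogenic fat, was at 4.18 in fed, 4.26 in phase 2 and 4.36 in phase 3 animals, below the background guide described next. Of 6 measured brown adipocyte markers 1, Ppargc1a, rose in both fasted groups against fed, at a dim level, and none fell. Cpt1b rose in phase 3 against phase 2 (0.72). The mean over the 6 lay between 4.84 and 5.12 in phase 3 rats and between 4.62 and 4.82 in fed rats. These marker counts stand beside 21.1% of all genes called higher and 24.3% called lower in phase 3 against fed. The shares were 9.66% and 15.5% in phase 2 against fed, and 12.8% and 15.1% in phase 3 against phase 2. Levels of the marker lists in every rat are plotted with the cell types, and their part in the carrier results was not tested.

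**Figure D1:**
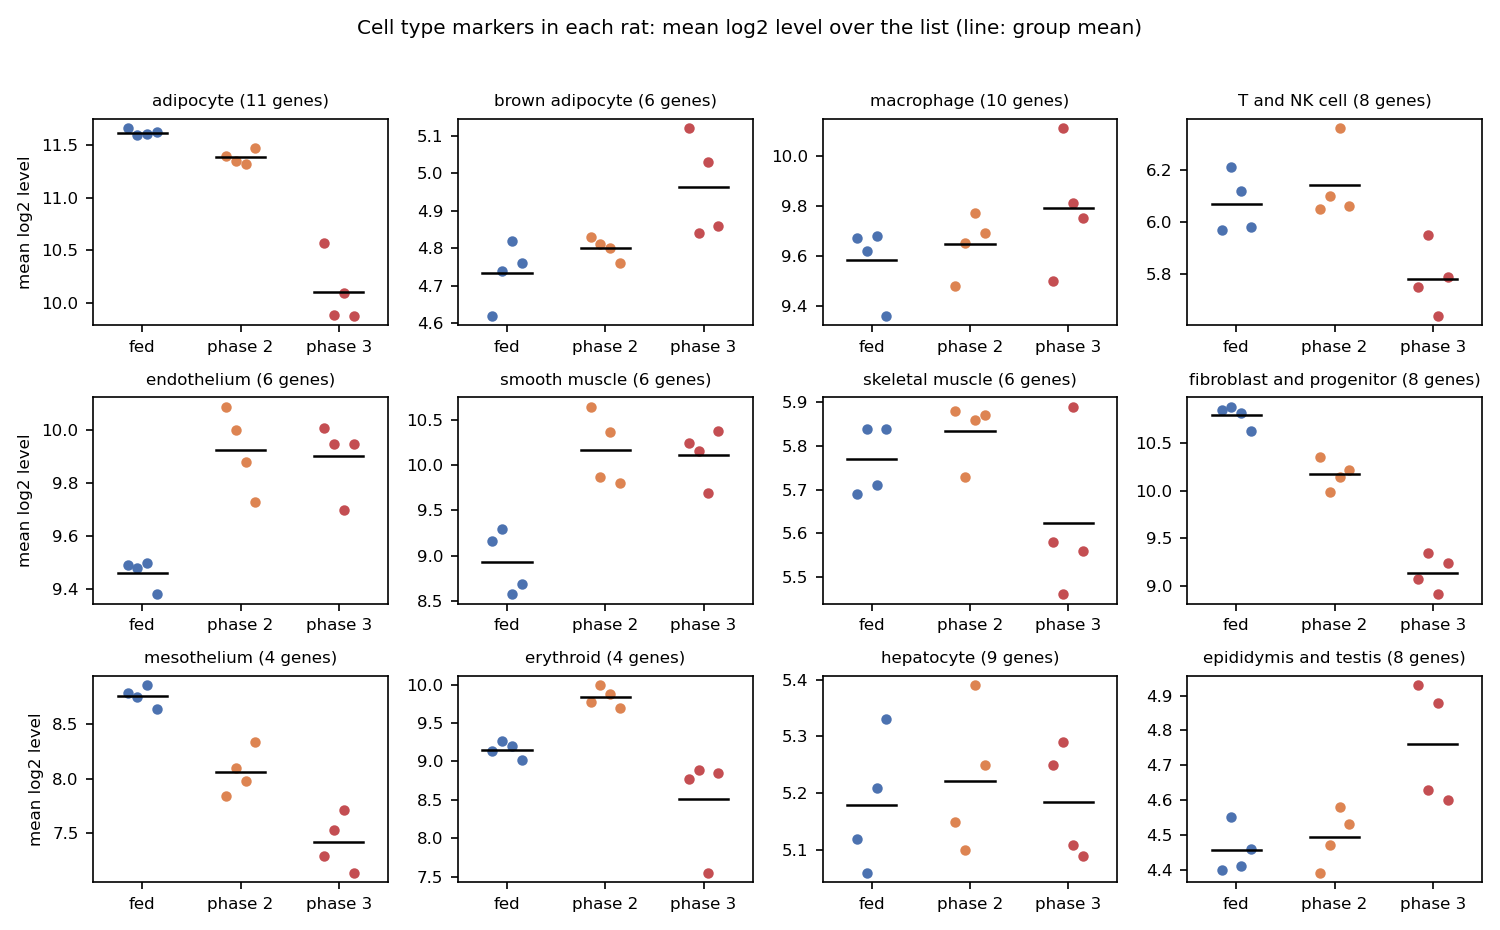
Mean log2 level over each cell type marker list (y axis, each panel with its own scale) in the 4 rats of the fed, phase 2 and phase 3 groups (x axis); points are rats and the line is the group mean. The adipocyte list lies between 9.88 and 10.57 in phase 3 rats and between 11.59 and 11.66 in fed rats.

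No detection calls were used, so the 53 olfactory receptor genes, taken as mostly silent in fat, served as a guide to background. The 95th percentile of their group means was 5.32 for the fed group, 5.66 for phase 2 and 5.76 for phase 3. Of the carrier genes, 30 lay above it in every group and 7 lay at or below it in at least 1 group, namely Slc25a18, Slc25a21, Slc25a27, Slc25a29, Slc25a34, Slc25a41 and Slc25a54. No fold is given for these 7, and their log2 differences are differences of signal that may hold background, not measured changes in level. Rats of phase 3 were more unlike each other than rats of the other groups. The median SD of the carrier genes was 0.109 in the fed group, 0.151 in phase 2 and 0.205 in phase 3, and over all genes it was 0.112, 0.126 and 0.167 in the same order.

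The carriers did not move as a block. In phase 3 against fed rats 12 of the 37 genes rose and 14 fell, and the other 11 did not pass the test (limma, Benjamini-Hochberg adjusted p below 0.05 over all genes tested). Over all genes 45.4% were called in this comparison, 21.1% higher and 24.3% lower. In phase 2 against fed rats 4 rose and 7 fell, where 25.2% of all genes were called, 9.66% higher and 15.5% lower. In phase 3 against phase 2, 5 rose and 8 fell, where 27.9% of all genes were called, 12.8% higher and 15.1% lower. The median difference of the family was -0.03 in phase 3 against fed, 0.03 in phase 2 against fed and -0.03 in phase 3 against phase 2, beside 0.05, 0.01 and 0.03 over all genes. Single members lay between -3.20 and 1.34 in phase 3 against fed, and between -1.91 and 0.99 when phase 2 was set against fed. All 3 comparisons share arrays, so they are not independent of each other.

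The split between rises and falls moved with the scaling of the arrays. Array medians over the tested genes averaged 6.975 in the fed group, 6.91 in phase 2 and 6.82 in phase 3, a shift of -0.155 for phase 3 minus fed. With each array centred on its median, 18 carriers rose and 10 fell in phase 3 against fed, 8 rose and 7 fell in phase 2 against fed, and 7 rose and 6 fell in phase 3 against phase 2. With the named genes quantile-normalised again the counts were 14 and 11, 8 and 6, and 6 and 7. No called difference changed its sign under any alternative.

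Group values were fully separate for 23 of the 37 genes between phase 3 and fed rats, for 15 between phase 2 and fed rats and for 10 between phase 3 and phase 2 rats. Over all genes this held for 41.9%, 31.0% and 26.3%. Of the 37 genes 28 were called in at least 1 comparison and 9 in none, and 52.2% of all genes were called in at least 1. A fold of at least 2 among the called genes was reached by 8 carriers in phase 3 against fed, 3 in phase 2 against fed and 3 in phase 3 against phase 2, where 9.51%, 2.98% and 3.60% of all genes reached it. The counts against fed and against phase 2 in phase 3 both include the dim gene Slc25a21, for which no fold is given.

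**Figure D2:**
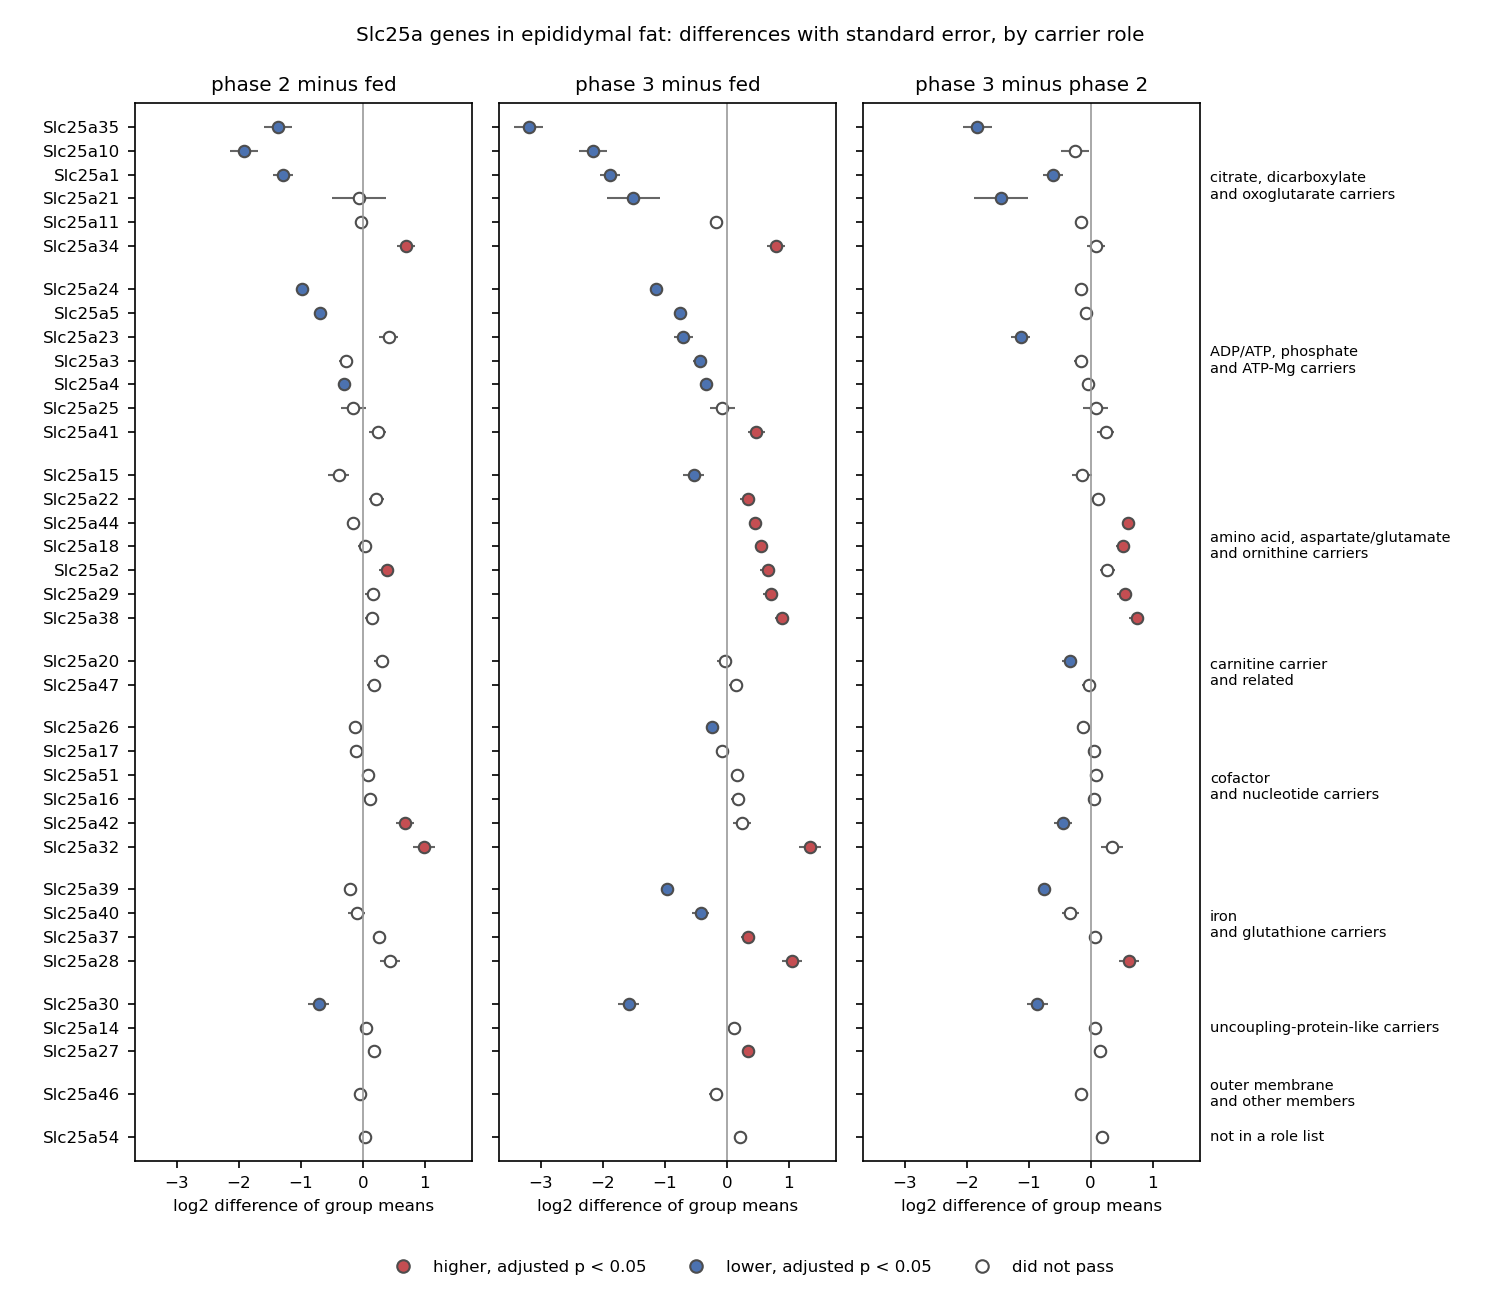
Difference of group means on the log2 scale (x axis, with standard error bars) for the 37 Slc25a genes (y axis, grouped by what they are known or thought to carry) in the 3 comparisons; red points rose and blue points fell at an adjusted p below 0.05, open points did not pass. Slc25a35 has the lowest difference in phase 3 minus fed, at -3.20, and Slc25a32 the highest, at 1.34.

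Carriers of citrate and dicarboxylates held the largest falls. Of 6 such genes 4 fell and 1 rose in phase 3 against fed, 3 fell and 1 rose in phase 2 against fed, and 3 fell in phase 3 against phase 2. The counts by carrier role, here and below, stand beside the shares over all genes given above. Slc25a35, an orphan carrier that resembles the oxaloacetate carrier of yeast, had 9.18, 9.31, 9.66 and 9.88 in fed rats, 8.24, 7.87, 8.40 and 8.04 in phase 2 rats, and 7.11, 6.16, 5.95 and 6.0 in phase 3 rats. The 3 groups did not overlap, and phase 3 rat 1 was the highest of its group. The phase 3 mean, 6.31, lay above the background guide of 5.76, but the other phase 3 rats, at 5.95 to 6.16, lay close to it. How far background limits the size of the falls to phase 3 was not tested. The gene was lower by 9.21-fold in phase 3 than in fed rats (log2 difference -3.20 ± 0.23 SE, adjusted p = 6.18e-08), by 2.59-fold in phase 2 than in fed rats (-1.37, adjusted p = 0.000585) and by 3.56-fold in phase 3 than in phase 2 (-1.83, adjusted p = 4.49e-05).

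Slc25a10, the dicarboxylate carrier that exchanges malate and succinate for phosphate, had 9.87, 10.09, 10.19 and 10.33 in fed rats, 8.42, 7.95, 8.23 and 8.21 in phase 2 rats, and 8.20, 7.23, 8.64 and 7.76 in phase 3 rats. Both fasted groups lay wholly below the fed rats and overlapped each other. It was 4.48-fold lower in phase 3 than in fed rats (-2.16 ± 0.226, adjusted p = 2.54e-06) and 3.77-fold lower in phase 2 than in fed rats (-1.91, adjusted p = 3.79e-05), and phase 3 minus phase 2 was -0.25 ± 0.226 (adjusted p = 0.465).

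Slc25a1, the citrate carrier, had 8.86, 9.45, 9.27 and 9.67 in fed rats, 8.13, 7.75, 8.10 and 8.11 in phase 2 rats, and 7.30, 7.28, 7.77 and 7.31 in phase 3 rats. It fell by 1.89 ± 0.161 on the log2 scale in phase 3 against fed (3.71-fold, adjusted p = 3.39e-07), by 1.29 in phase 2 against fed (adjusted p = 6.15e-05) and by 0.61 in phase 3 against phase 2 (adjusted p = 0.0116). Phase 3 rat 3, at 7.77, overlapped phase 2 rat 2, at 7.75. A second, dimmer probe set of Slc25a1 averaged 6.34 in the fed group, 6.13 in phase 2 and 6.02 in phase 3. It did not pass in any comparison when all probe sets were tested together (adjusted p = 0.0585 in phase 3 against fed). Its differences had the same sign but were much smaller, at -0.32 in phase 3 and -0.21 in phase 2 against fed, so the 2 probe sets differ in the size of the fall.

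Slc25a21 carries oxodicarboxylates such as 2-oxoadipate, an intermediate of lysine breakdown. It was the most variable carrier, with 5.90, 6.90, 7.77 and 7.88 in fed rats, 7.20, 7.42, 6.89 and 6.69 in phase 2 rats, and 6.39, 6.29, 4.81 and 4.92 in phase 3 rats. Phase 3 rats lay below all phase 2 rats, while fed rat 1 lay among the phase 3 rats. The gene fell by 1.51 ± 0.43 in phase 3 against fed (adjusted p = 0.0104) and was lower in phase 3 than in phase 2 (-1.45, adjusted p = 0.0211). The phase 3 mean of Slc25a21, 5.60, lay below the background guide of 5.76, so both differences were taken against a level not shown to be above background. The second call was lost on leaving out phase 2 rat 1 (0.0527), phase 2 rat 2 (0.0596), phase 3 rat 3 (0.0635) or phase 3 rat 4 (0.0719).

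Slc25a34, a close relative of Slc25a35, went the other way. It had 5.07, 4.54, 5.19 and 5.37 in fed rats, 5.80, 5.81, 5.73 and 5.63 in phase 2 rats, and 5.87, 5.58, 5.92 and 5.96 in phase 3 rats. All fasted rats were above all fed rats, by 0.79 ± 0.146 in phase 3 (adjusted p = 0.000439) and 0.70 in phase 2 (adjusted p = 0.00268), but the fed level lay below the background guide. Slc25a11, the oxoglutarate carrier of the malate-aspartate shuttle, did not pass, at 9.85 ± 0.0599 in the fed group, 9.82 ± 0.105 in phase 2 and 9.67 ± 0.113 in phase 3 (SD, n = 4 each). Its difference in phase 3 against fed was -0.18 ± 0.0815 (adjusted p = 0.0809, and 0.0348 without phase 3 rat 1).

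The promoters of Slc25a1, Slc25a10 and Slc25a35, the carriers with the 3 largest falls in phase 3 against fed, are shown with that of Slc25a28, the largest rise in that comparison among carriers whose promoter was in the table. Each runs from 250 bases before to 50 bases after the gene start in RefSeq, 5′ to 3′ along the gene, and capitals mark every motif match on either strand.
Slc25a1 (GRCr8 chr11:96559804-96560103, plus strand): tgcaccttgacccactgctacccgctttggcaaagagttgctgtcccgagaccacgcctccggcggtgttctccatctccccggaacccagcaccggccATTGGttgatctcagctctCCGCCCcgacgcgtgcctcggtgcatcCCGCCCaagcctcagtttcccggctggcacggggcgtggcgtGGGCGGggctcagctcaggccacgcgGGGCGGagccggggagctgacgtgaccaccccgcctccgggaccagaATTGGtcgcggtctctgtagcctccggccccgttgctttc
Slc25a10 (GRCr8 chr10:106264146-106264445, plus strand): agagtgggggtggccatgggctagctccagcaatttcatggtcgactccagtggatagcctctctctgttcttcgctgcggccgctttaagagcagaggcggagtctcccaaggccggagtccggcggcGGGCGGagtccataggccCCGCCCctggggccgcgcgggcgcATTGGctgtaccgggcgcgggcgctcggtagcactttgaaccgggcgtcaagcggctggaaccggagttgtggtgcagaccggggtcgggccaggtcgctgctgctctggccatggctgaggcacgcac
Slc25a35 (GRCr8 chr10:54172115-54172414, plus strand): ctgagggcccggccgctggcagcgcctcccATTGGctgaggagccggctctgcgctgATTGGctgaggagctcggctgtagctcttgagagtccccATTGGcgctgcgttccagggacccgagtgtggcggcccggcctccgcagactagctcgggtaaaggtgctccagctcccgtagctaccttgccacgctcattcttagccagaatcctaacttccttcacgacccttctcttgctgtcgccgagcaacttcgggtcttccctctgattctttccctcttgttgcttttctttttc
Slc25a28 (GRCr8 chr1:252491293-252491592, minus strand): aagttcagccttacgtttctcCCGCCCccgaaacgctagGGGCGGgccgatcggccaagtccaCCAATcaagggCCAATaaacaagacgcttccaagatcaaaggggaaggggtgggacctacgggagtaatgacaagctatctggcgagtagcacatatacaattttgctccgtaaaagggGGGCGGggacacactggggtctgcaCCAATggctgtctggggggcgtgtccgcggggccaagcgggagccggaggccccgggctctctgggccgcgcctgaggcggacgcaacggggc

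The capitals are CCAAT boxes (CCAAT) and GC boxes (GGGCGG), and no matches overlap. The promoter of Slc25a1 held 2 CCAAT boxes and 4 GC boxes, that of Slc25a10 held 1 and 2, that of Slc25a28 held 3 and 3, and that of Slc25a35 held 3 CCAAT boxes. Both are common motifs. A CCAAT box stood in 18 of the 32 carrier promoters in the table and in 37.5% of all 33469 promoters, and a GC box in 23 of the 32 and in 33.1% of all. The 33469 promoters were not limited to the 14506 genes tested here, so they are an unlike set, and enrichment was not tested. Other motifs searched were the E-box (CACGTG, 6.42% of all promoters), the sterol regulatory element (TCACNCCAC, 1.12%), the nuclear respiratory factor 1 site (4.25%), the cAMP response element (TGACGTCA, 1.83%), the forkhead site (TGTTTAC, 3.78%), the ATF4 composite element (TGATGNAA, 3.98%), the oestrogen-related receptor site (TCAAGGTCA, 0.433%), the PPAR response element (0.0538%) and the glucocorticoid response element (0.0149%). Among the carrier promoters the E-box was found in Slc25a2 and Slc25a51, the sterol regulatory element in Slc25a24, the nuclear respiratory factor 1 site in Slc25a51 and the cAMP response element in Slc25a25. The rest were in none of the 32 windows.

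Carriers of adenine nucleotides and phosphate fell less. Of 7 such genes 5 fell and 1 rose in phase 3 against fed, and 3 fell in phase 2 against fed. Slc25a5, the ADP/ATP carrier known as ANT2, had 11.91, 11.80, 11.95 and 12.07 in fed rats, 11.17, 11.13, 11.36 and 11.30 in phase 2 rats, and 11.22, 11.14, 11.24 and 11.08 in phase 3 rats. Every fasted rat was below every fed rat. It was 1.70-fold lower in phase 3 than in fed rats (-0.76 ± 0.0821, adjusted p = 3.32e-06) and 1.61-fold lower in phase 2 than in fed rats (-0.69, adjusted p = 3.97e-05). Phase 3 minus phase 2 was -0.07 ± 0.0821.

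Slc25a4, the ANT1 isoform that prevails in heart and muscle, had 11.52, 11.41, 11.56 and 11.57 in fed rats, 11.07, 11.25, 11.25 and 11.28 in phase 2 rats, and 11.22, 11.19, 11.15 and 11.11 in phase 3 rats. The fasted rats again lay below all fed rats, by a smaller distance. It fell by 0.34 ± 0.0746 in phase 3 (adjusted p = 0.00163) and by 0.30 in phase 2 against fed (adjusted p = 0.00844, and 0.0782 with quantile normalisation). Slc25a3, which imports the phosphate used by ATP synthase, fell by 0.43 ± 0.115 in phase 3 against fed (adjusted p = 0.00714, and 0.0506 with centred arrays).

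The ATP-Mg/phosphate carriers, which respond to calcium and load adenine nucleotides into the matrix, split. Slc25a24 had 10.40, 10.25, 10.37 and 10.34 in fed rats, 9.27, 9.41, 9.29 and 9.46 in phase 2 rats, and 9.04, 9.17, 9.31 and 9.28 in phase 3 rats. The fasted rats lay far below the fed rats, which hardly varied. Slc25a24 was 2.21-fold lower in phase 3 (-1.14 ± 0.0818, adjusted p = 6.05e-08) and 1.98-fold lower in phase 2 (-0.98, adjusted p = 1.84e-06) than in fed rats, and its second probe set fell in both comparisons too, by 1.31 and by 1.14.

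Slc25a23 had 7.36, 7.33, 7.74 and 7.72 in fed rats, 8.19, 8.07, 7.83 and 7.75 in phase 2 rats, and 7.16, 6.77, 6.46 and 6.94 in phase 3 rats. Its phase 2 rats were the highest and its phase 3 rats the lowest, with no overlap between any groups. It was 2.19-fold lower in phase 3 than in phase 2 (-1.13 ± 0.152, adjusted p = 8.29e-05) and 1.63-fold lower in phase 3 than in fed rats (-0.70, adjusted p = 0.00157). The difference of 0.42 in phase 2 against fed did not pass (adjusted p = 0.0566), but did in 7 alternatives, among them centred arrays (0.0274) and quantile normalisation (0.0302). Both probe sets of Slc25a23 fell in phase 3 against fed and in phase 3 against phase 2 when all probe sets were tested. In phase 2 against fed neither passed in that test, and the second was at only 0.23 (adjusted p = 0.341, against 0.0818 for the first).

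Slc25a41, the short member of this subfamily and the neighbour of Slc25a23 in the RefSeq gene order on chromosome 9, rose by 0.48 ± 0.131 in phase 3 against fed (adjusted p = 0.00759) from 5.03, below the background guide. Slc25a25 did not pass, at -0.07 ± 0.197 in phase 3 and -0.15 ± 0.197 in phase 2 against fed.

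Amino acid carriers mostly rose in phase 3 against fed. Of 7 such genes 6 rose and 1 fell in that comparison, 4 rose and none fell in phase 3 against phase 2, and 1 rose in phase 2 against fed. Over all genes 21.1% were called higher and 24.3% lower in phase 3 against fed. Of the 4 rises in phase 3 against phase 2, 2 (Slc25a18 and Slc25a29) started from a phase 2 mean below the background guide. Both were also among the 6 rises against fed, where Slc25a29 started below the guide and Slc25a18 just above it. Slc25a38, which carries glycine for haem synthesis, had 7.26, 7.26, 7.56 and 7.44 in fed rats, 7.53, 7.36, 7.79 and 7.43 in phase 2 rats, and 8.03, 8.31, 8.28 and 8.45 in phase 3 rats. Only phase 3 rats stood apart, above both other groups. It was 1.85-fold higher in phase 3 than in fed rats (0.89 ± 0.115, adjusted p = 1.91e-05) and 1.67-fold higher than in phase 2 (0.74, adjusted p = 0.000264).

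Slc25a44, a carrier of branched-chain amino acids known from mouse brown fat, had 8.18, 8.22, 8.12 and 8.31 in fed rats, 8.0, 7.89, 8.28 and 8.05 in phase 2 rats, and 8.59, 8.51, 8.78 and 8.72 in phase 3 rats. The phase 3 rats again lay above all others. The rise was 0.45 ± 0.094 against fed (adjusted p = 0.0013) and 0.60 against phase 2 (adjusted p = 0.000289). Slc25a29, a carrier of arginine and lysine, had 4.37, 4.51, 4.46 and 4.19 in fed rats, 4.50, 4.72, 4.65 and 4.28 in phase 2 rats, and 4.88, 5.32, 4.91 and 5.25 in phase 3 rats. It rose by 0.71 ± 0.124 in phase 3 against fed (adjusted p = 0.000292) and by 0.55 against phase 2 (adjusted p = 0.00409), all of it below the background guide.

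Of the glutamate carriers, Slc25a18 had 5.21, 5.46, 5.34 and 5.36 in fed rats, 5.09, 5.49, 5.53 and 5.41 in phase 2 rats, and 5.65, 5.95, 6.01 and 6.0 in phase 3 rats. The phase 3 rats did not overlap the others, with a rise of 0.56 ± 0.11 against fed (adjusted p = 0.00077) and 0.52 against phase 2 (adjusted p = 0.00271). Its fed mean, 5.34, lay just above the background guide and its phase 2 mean, 5.38, below it. Slc25a22, the other glutamate carrier, rose by 0.34 ± 0.119 in phase 3 against fed (adjusted p = 0.0314), a call lost on leaving out fed rat 1 (0.0884), fed rat 3 (0.0649), phase 3 rat 3 (0.0568) or phase 3 rat 4 (0.105).

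The ornithine carriers went opposite ways. Slc25a2 had 6.50, 6.32, 6.51 and 6.38 in fed rats, 6.98, 6.99, 6.79 and 6.50 in phase 2 rats, and 6.78, 7.17, 7.12 and 7.26 in phase 3 rats. The phase 3 rats were above all fed rats, and phase 2 rat 4 was within the fed range. It rose by 0.66 ± 0.123 in phase 3 against fed (adjusted p = 0.000496) and by 0.39 in phase 2 against fed (adjusted p = 0.031), the second of which was lost with the replicate block (0.0558) and on leaving out fed rat 2 (0.0799), fed rat 4 (0.0763), or phase 2 rat 1 (0.0922), rat 2 (0.0986) or rat 3 (0.0541). Slc25a15, the main ornithine carrier of the urea cycle in liver, fell by 0.53 ± 0.169 in phase 3 against fed (adjusted p = 0.019), a call that ended with centred arrays (0.0659), quantile normalisation (0.0598) and without fed rat 4 (0.0551) or phase 3 rat 4 (0.0664).

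Of the 12 rises in phase 3 against fed, 5, those of Slc25a18, Slc25a27, Slc25a29, Slc25a34 and Slc25a41, were among the 7 dim genes. In the same comparison the olfactory receptor genes had a median difference of 0.07, with 7 of 53 higher and 0 lower. Their 95th percentile, the background guide, moved further, from 5.32 in the fed group to 5.76 in phase 3. The mean of Slc25a27 was 5.38 in the fed group, above the guide, and 5.72 in phase 3, below it. Among the 30 brighter carriers 7 rose and 13 fell. Of the 5 rises of the family in phase 3 against phase 2, 2 were of dim genes, beside a median of 0.09 for the olfactory receptor genes, with 3 higher and 1 lower. The part of the rise at the dim end in these calls was not tested.

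**Figure D3:**
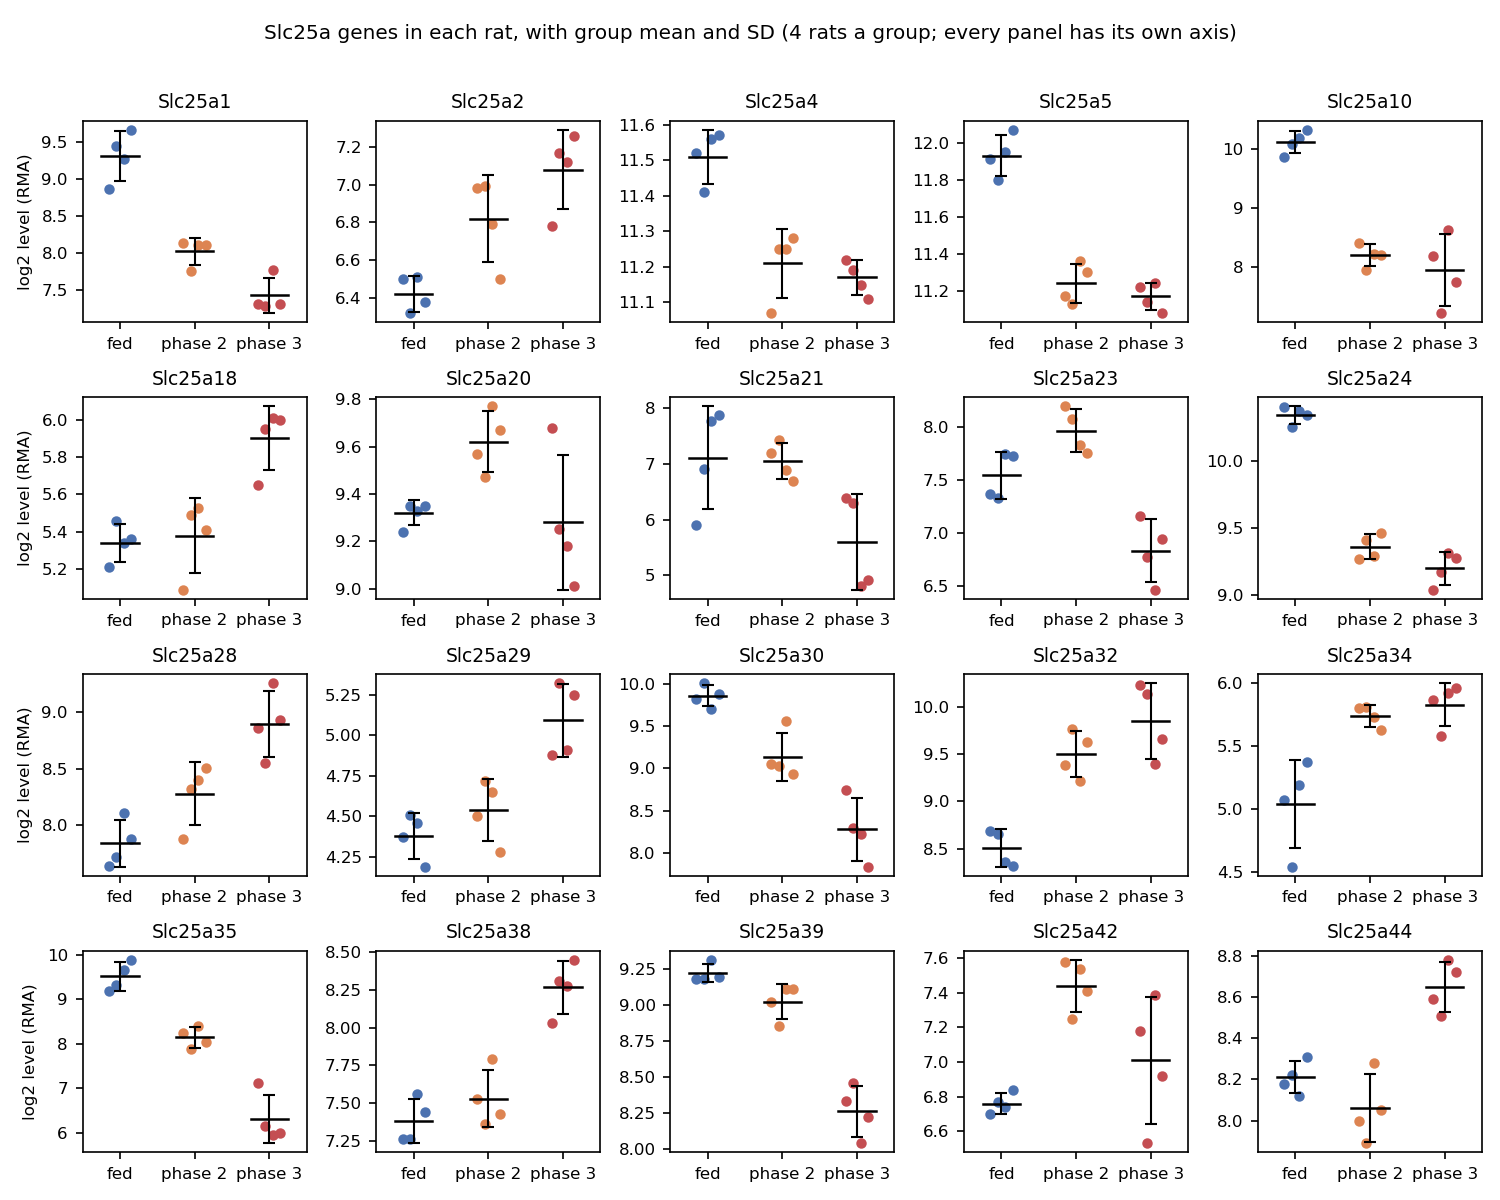
Log2 level (y axis, each panel with its own scale) of 20 Slc25a genes in the 4 rats of the fed, phase 2 and phase 3 groups (x axis); points are rats, the long line is the group mean and the bars are SD. Slc25a38, Slc25a44, Slc25a18 and Slc25a29 show phase 3 rats above all others, and Slc25a35 and Slc25a30 show 3 groups with no overlap.

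Slc25a20, the carnitine-acylcarnitine carrier that brings long-chain acyl groups to beta-oxidation, had 9.24, 9.35, 9.33 and 9.35 in fed rats, 9.57, 9.47, 9.77 and 9.67 in phase 2 rats, and 9.68, 9.25, 9.18 and 9.01 in phase 3 rats. All phase 2 rats were above all fed rats, and phase 3 rat 1 was with the phase 2 rats. The difference of 0.31 ± 0.121 in phase 2 against fed did not pass (adjusted p = 0.0816), though it passed with centred arrays (0.0373), with quantile normalisation (0.0385), in a fit of only these 2 groups (0.0127) and without phase 3 rat 1 (0.0173). In phase 3 against fed it was -0.03 ± 0.121 (adjusted p = 0.837). The fall of 0.34 in phase 3 against phase 2 was at the threshold (adjusted p = 0.0492) and ended in 14 of 20 alternatives (adjusted p between 0.00174 and 0.154 over all of them), among them the fits that left out any 1 fed rat, phase 2 rat 1, 3 or 4, or phase 3 rat 2, 3 or 4. Slc25a47, a liver carrier, did not pass, at 0.15 ± 0.116 in phase 3 against fed.

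Among carriers of cofactors, Slc25a32, which carries folate and is also tied to matrix FAD, had 8.69, 8.66, 8.36 and 8.32 in fed rats, 9.38, 9.77, 9.22 and 9.63 in phase 2 rats, and 10.23, 10.13, 9.39 and 9.66 in phase 3 rats. All fasted rats were above all fed rats. It was 2.54-fold higher in phase 3 (1.34 ± 0.178, adjusted p = 2.32e-05) and 1.99-fold higher in phase 2 (0.99, adjusted p = 0.000959) than in fed rats, the largest rise of the family in both comparisons. Slc25a42, which exchanges coenzyme A for adenine nucleotides, had 6.70, 6.77, 6.74 and 6.84 in fed rats, 7.58, 7.25, 7.54 and 7.41 in phase 2 rats, and 7.18, 6.53, 7.39 and 6.92 in phase 3 rats.

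Slc25a42 was highest in phase 2, and its phase 3 rats overlapped both other groups. It was 1.61-fold higher in phase 2 than in fed rats (0.68 ± 0.146, adjusted p = 0.00324), and phase 3 minus fed was 0.24 (adjusted p = 0.19). The fall of 0.44 in phase 3 against phase 2 (adjusted p = 0.0365) ended in 9 alternatives, among them centred arrays (0.0869), quantile normalisation (0.104) and the fits that left out phase 2 rat 1, 3 or 4, or phase 3 rat 2 or 4, which gave 0.0625 to 0.0989.

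Slc25a26, the S-adenosylmethionine carrier, fell by 0.24 ± 0.0807 in phase 3 against fed (adjusted p = 0.027), but not with centred arrays (0.364) or quantile normalisation (0.0885), in a fit of the 2 groups alone (0.056), or on leaving out fed rat 2 (0.0501), fed rat 3 (0.0641), fed rat 4 (0.0585) or phase 3 rat 3 (0.0596). The NAD carrier Slc25a51 (0.17 ± 0.0874), the peroxisomal Slc25a17 (-0.07 ± 0.0912) and Slc25a16 (0.18 ± 0.106) did not pass in phase 3 against fed. The 3 probe sets of Slc25a51 differed by between 0.17 and 0.20 in that comparison, and none passed.

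Iron and glutathione carriers moved in opposite directions in phase 3. Slc25a28, mitoferrin-2, the iron importer outside the erythroid lineage, had 7.64, 7.72, 8.11 and 7.88 in fed rats, 7.88, 8.32, 8.40 and 8.51 in phase 2 rats, and 8.86, 8.55, 9.26 and 8.93 in phase 3 rats. All phase 3 rats were above all other rats. It was 2.09-fold higher in phase 3 than in fed rats (1.06 ± 0.161, adjusted p = 7.93e-05) and 1.54-fold higher than in phase 2 (0.62, adjusted p = 0.00976). In phase 2 against fed the 0.44 did not pass (adjusted p = 0.06), though 9 alternatives called it, with adjusted p between 0.0162 and 0.0467. Slc25a37, mitoferrin-1, known from red cell precursors, rose by 0.34 ± 0.103 in phase 3 against fed (adjusted p = 0.0143), where erythroid markers were lower.

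Slc25a39, which imports glutathione, had 9.18, 9.18, 9.31 and 9.19 in fed rats, 9.02, 8.85, 9.11 and 9.11 in phase 2 rats, and 8.33, 8.46, 8.04 and 8.22 in phase 3 rats. The groups did not overlap, with a wide gap only to phase 3. It was 1.94-fold lower in phase 3 than in fed rats (-0.96 ± 0.0951, adjusted p = 1.58e-06) and 1.69-fold lower than in phase 2 (-0.76, adjusted p = 4.35e-05), while phase 2 minus fed was -0.20 (adjusted p = 0.159). Its relative Slc25a40 fell by 0.42 ± 0.135 in phase 3 against fed (adjusted p = 0.0189, but 0.0904 with centred arrays, 0.0931 with quantile normalisation and 0.0514 without fed rat 2).

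Of the carriers that resemble uncoupling proteins, Slc25a30, first described in kidney, had 9.82, 10.01, 9.71 and 9.88 in fed rats, 9.05, 9.03, 9.56 and 8.93 in phase 2 rats, and 8.74, 8.30, 8.23 and 7.84 in phase 3 rats. The 3 groups stepped down without overlap. It was 2.99-fold lower in phase 3 than in fed rats (-1.58 ± 0.17, adjusted p = 3.41e-06), 1.64-fold lower in phase 2 than in fed rats (-0.71, adjusted p = 0.0067) and 1.82-fold lower in phase 3 than in phase 2 (-0.86, adjusted p = 0.00165). Slc25a27, known as UCP4 and found mainly in brain, rose by 0.34 ± 0.0916 in phase 3 against fed (adjusted p = 0.00741) at a dim level, and Slc25a14 did not pass (0.12 ± 0.0832). Slc25a46, an outer membrane member tied to mitochondrial fission (-0.18 ± 0.0992), and Slc25a54 (0.21 ± 0.0872), at a mean of 3.42 in phase 3 and 3.21 in fed rats, did not pass either. With centred arrays, 5 of the carriers that did not pass in phase 3 against fed, Slc25a14, Slc25a16, Slc25a47, Slc25a51 and Slc25a54, were called higher, as was Slc25a42 (adjusted p between 0.00211 and 0.0402).

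The partner genes of the carriers were read from lists. Of 8 genes around citrate export and cytosolic acetyl-CoA, 8 fell in phase 3 and 6 in phase 2 against fed, with medians of -1.16 and -0.74. Acly, which splits exported citrate, was at -1.82 in phase 3 and -2.29 in phase 2, and Me1, the malic enzyme, at -3.96 and -3.09. Of 6 genes of the malate-aspartate and glycerol phosphate shuttles 6 fell in phase 3 and 4 in phase 2, with Mdh2, the matrix malate dehydrogenase, at -1.12 and -0.62. Of 4 measured genes of the carnitine shuttle 1 rose in phase 3 and 2 in phase 2, Cpt1a, the entry enzyme, at 0.86 and 0.76 and, in phase 2, Crat, carnitine acetyltransferase, at 0.36.

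Of 9 ornithine, urea and arginine genes 3 rose and 2 fell in phase 3 against fed, and 3 fell in phase 2. The rises were Ass1, argininosuccinate synthase (6.34), Arg2, the mitochondrial arginase (2.28), and Asl, argininosuccinate lyase (1.41). Fed means of Ass1 and Arg2, 5.13 and 4.52, lay below the background guide. Of 12 genes of branched-chain amino acid breakdown 4 rose and 2 fell in phase 3. They included Ppm1k, the phosphatase that activates the branched-chain ketoacid dehydrogenase, at 1.30, its kinase Bckdk at -0.77 and the complex subunit Dbt at 0.73. Of 8 genes that use imported iron 6 fell and none rose in phase 3 against fed, with the glutaredoxin Glrx5 at -1.32, Alas1, which starts haem synthesis, at -1.08 and the cysteine desulphurase Nfs1 at -0.73.

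Family members under other symbols fell in 4 of 5 cases in phase 3 against fed, among them Ucp3 (-1.29) and Mtch2, an outer membrane insertase (-0.58). Of 9 other inner membrane carriers 3 fell and 1 rose, with the sideroflexin Sfxn5 at -1.92, Mpc1, a subunit of the pyruvate carrier, at -1.62 and the transporter Abcb8 at -1.09. Among outer membrane genes 3 of 7 fell, the translocator protein Tspo at -1.58, the hexokinase Hk1 at -0.86 and the channel Vdac1 at -0.55, and 2 of 3 calcium genes fell, the uniporter Mcu at -1.11 and Letm1 at -1.01. In the import route of carriers 5 of 11 fell, with Agk at -1.01 and Timm22 at -0.44. Of 14 matrix and inner membrane genes 10 fell and 2 rose, with the respiratory chain subunits Cox5b at -0.98 and Ndufs1 at -0.99 and the citrate synthase Cs at -1.12, while biogenesis factors rose in 6 of 11 and fell in none, among them Tfam (0.57), Nrf1 (0.32) and Ppargc1a (0.75, at a dim level). The list counts in phase 3 against fed stand beside 21.1% higher and 24.3% lower over all genes. Those in phase 2 against fed stand beside 9.66% higher and 15.5% lower.

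**Figure D4:**
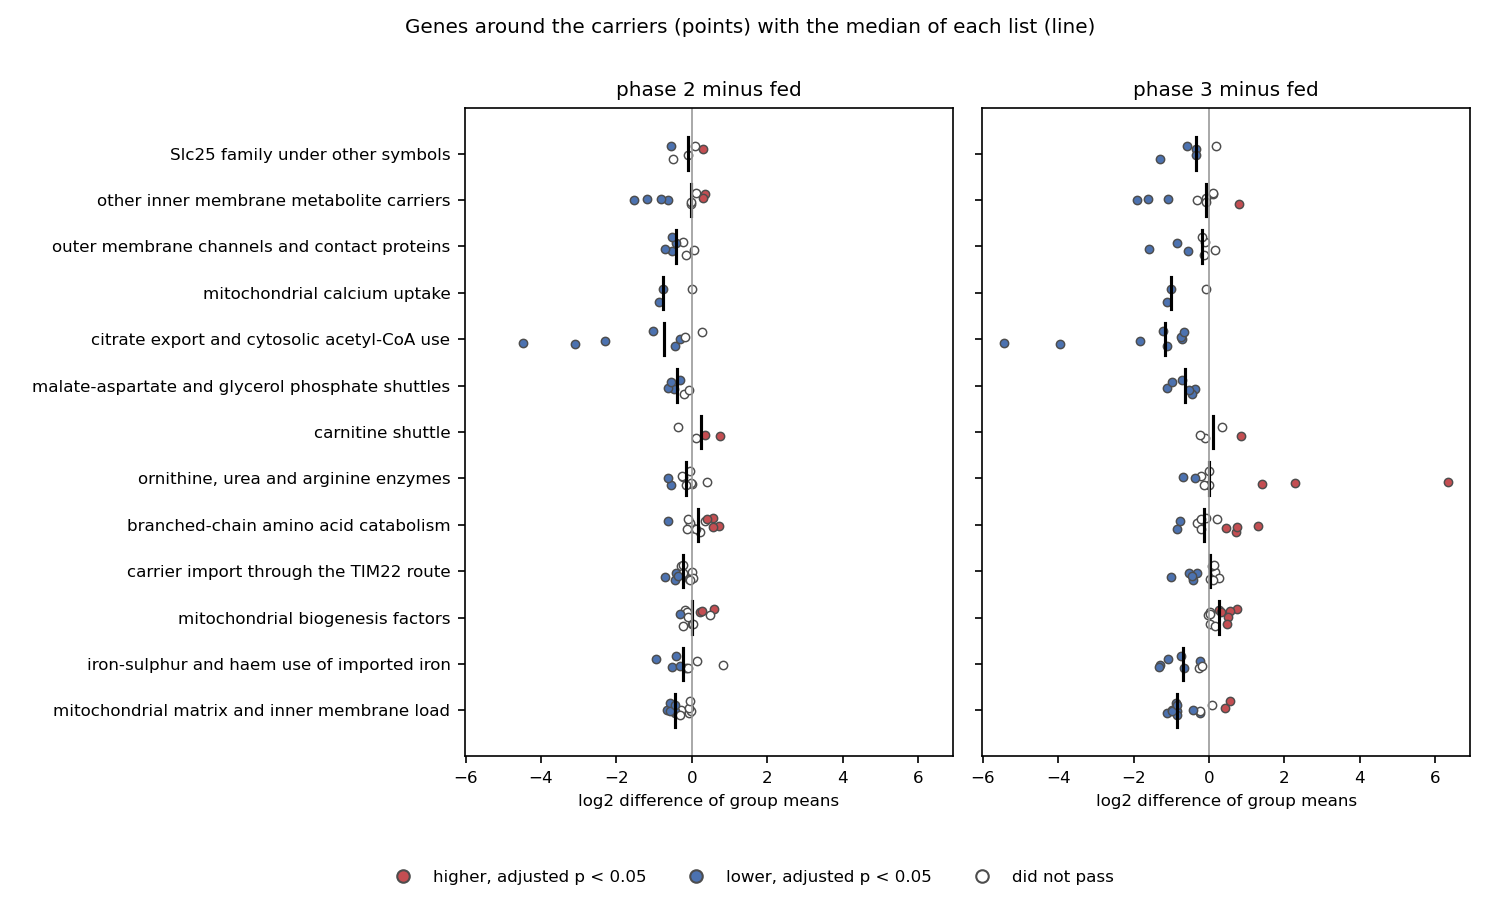
Log2 difference of group means (x axis) for genes that work beside the carriers, by list (y axis), in phase 2 minus fed and phase 3 minus fed; points are genes, coloured where they passed at an adjusted p below 0.05, and the black line is the list's median. The citrate export list has medians of -0.74 in phase 2 and -1.16 in phase 3.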

How the data were processed

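Expression was measured in epididymal white fat of 12 rats, 4 per group, with groups and rat numbers taken from the sample titles. The extraction protocol names liver, while titles and tissue labels name fat. In fed rats the mean over 9 hepatocyte markers lay between 5.06 and 5.33, and that over 11 adipocyte markers between 11.59 and 11.66. In phase 3 rats the ranges were 5.09 to 5.29 and 9.88 to 10.57. Of the 9 hepatocyte markers, 1 rose and 2 fell in phase 3 against fed, a count of differences that does not bear on the tissue. Replicates are separate rats per the labels. The deposited values are log2 levels made by the authors with RMA, with GCOS and Affymetrix Expression Console 1.1 named, per the submitters' processing notes; array medians over all probe sets, named or not, lay between 6.026 and 6.1319. Precision is limited by how many arrays there are. No scan dates or batches were used.

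Of 29215 probe sets, 15310 had 1 platform gene symbol, 323 several and 13582 none. Only the first kind gave gene names. All 37 carrier genes matched RefSeq (GRCr8) by Entrez number, and promoters came from RefSeq's GRCr8 table. All 12 arrays entered 1 model with a mean per group in limma 3.58.1 (R 4.3.3), and p-values were adjusted by Benjamini-Hochberg over 14506 genes. The fit was tested on simulated data. Members and lists were chosen with earlier results of these data known. Values in every rat are given for the 5 largest called rises and falls of each comparison and for Slc25a1, Slc25a4, Slc25a5, Slc25a10 and Slc25a20; from each pathway list up to 3 genes with the smallest adjusted p in phase 3 against fed are named. Tables were prepared with pandas 2.3.3 in Python 3.11.15 and plots drawn with matplotlib 3.10.9. Alternatives were other scalings, a filter on dim genes, the mean of probe sets, an intensity trend with robust prior, fits of 2 groups, all probe sets, a replicate block and leaving out each rat.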

Additional observations from a re-analysis of the deposited data

Results flagged for a closer look

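Within 8 of the 111 groups of 4 rats, 1 rat stood far from the other 3 by Dixon's criterion, and chance gives about 1 in 20. Slc25a1 was low in phase 2 rat 2, at 7.75 with the other phase 2 rats between 8.10 and 8.13, and high in phase 3 rat 3, at 7.77 with the others between 7.28 and 7.31. Slc25a4 was low in phase 2 rat 1, at 11.07 with the others between 11.25 and 11.28. Slc25a18 was low in phase 3 rat 1, at 5.65, with the others between 5.95 and 6.01. Slc25a26 was low in phase 3 rat 3, at 8.11, with the others between 8.40 and 8.43. Slc25a39 was high in fed rat 3, at 9.31, with the others between 9.18 and 9.19. Slc25a41 was high in phase 2 rat 4, at 5.40, with the others between 5.21 and 5.24. Slc25a51 was high in phase 3 rat 1, at 10.80, with the others between 10.57 and 10.61.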

How the results depend on the processing

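Over 20 alternatives no called difference of a carrier changed sign. Calls held in every alternative that measured the gene for 21 of 26 carriers in phase 3 against fed, 9 of 11 in phase 2 against fed and 10 of 13 in phase 3 against phase 2. The count of rises in phase 2 against fed was 8 with centred arrays, with quantile normalisation and in a fit of the 2 groups alone, against 4 as reported. Without the dimmest 40% of genes, which left 29 carriers, rises numbered 7 in phase 3 against fed and 3 in phase 3 against phase 2, against 12 and 5. Leaving out 1 rat gave 3 to 6 rises and 7 to 8 falls in phase 2 against fed, 11 to 13 and 12 to 15 in phase 3 against fed, and 5 to 6 and 5 to 9 in phase 3 against phase 2, with 5 falls without phase 2 rat 1 or phase 3 rat 4. No pairing of the rats by the numbers in the titles was seen, though with 4 rats per group these correlations cannot exclude one. Same-numbered rats correlated between -0.155 and 0.188 in their deviations from the group means, over 0.1 in 4 of 12 pairs. Rats of different numbers correlated between -0.253 and 0.276, and 2 of 12 rats correlated best with their own number. With the replicate block there were 4 rises and 7 falls in phase 2 against fed, 12 and 14 in phase 3 against fed and 5 and 7 in phase 3 against phase 2. Calls gained and not described above were, in phase 2 against fed, Slc25a37 in 5 alternatives (adjusted p between 0.0268 and 0.0491), Slc25a15 in the fit of 2 groups (0.0265) and without phase 3 rat 2 (0.035), and Slc25a3 without fed rat 2 (0.0147). Without phase 3 rat 2, Slc25a46 (0.0419) and Slc25a42 (0.0111) passed in phase 3 against fed, as did Slc25a42 with quantile normalisation (0.0411), Slc25a51 with quantile normalisation (0.0213), Slc25a16 without phase 3 rat 3 (0.0369) and Slc25a54 without phase 3 rat 1 (0.037) or rat 3 (0.0434). Slc25a2 passed in phase 3 against phase 2 with centred arrays (0.0358), quantile normalisation (0.0326) and without phase 3 rat 1 (0.0286), Slc25a32 without phase 3 rat 3 (0.0318), Slc25a40 without phase 3 rat 1 (0.0321) and Slc25a54 with centred arrays (0.0224). Causes of these changes were not tested. Without detection calls, the 7 dim carriers cannot be placed above background in every group, and 3 of them lay at or below the guide in all 3 groups.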
